A study of Homo sapiens with 6 samples.

Results

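The antiapoptotic BCL2 family comprised 5 genes, BCL2, BCL2L1, BCL2L2, MCL1 and BCL2A1, taken by name from the platform annotation. Every probe set that named 1 of them and no other gene was kept, which gave 20 of 47481 probe sets and 5 of 17534 named genes. Expression was measured on Affymetrix PrimeView arrays, on which a probe set is a group of short probes designed against 1 target sequence near the 3′ end of a transcript. There were 3 arrays of MM.1R cells given epirubicin hydrochloride and 3 arrays of MM.1R cells that had received a control shRNA vector (shCtrl). MM.1R is a human multiple myeloma line resistant to glucocorticoids, and epirubicin is an anthracycline that poisons topoisomerase II. Both groups were grown in the same serum-containing medium. Since the labels mention the vector only for the shCtrl arrays, effects of the drug and of the missing vector cannot be told apart. The sources used here give no dose and no exposure time. They also do not tell whether the replicate arrays were separate cultures, and the p-values then measure the spread between these arrays only, which may be technical.

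Proteins of this family hold cells alive by binding the pore-forming effectors BAX and BAK1 and the BH3-only proteins that activate them, and so keep the mitochondrial outer membrane intact. BH3-only proteins such as NOXA and PUMA occupy the same groove and release the effectors. Long-lived plasma cells and most myelomas are known to lean on MCL1, with BCL2 and BCL-XL as alternatives, and drugs that mimic the BH3 helix are aimed at each of these proteins. The comparison of the arrays gives the transcript side of that balance under a drug that, per the labels, was added to stop proliferation.

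The deposited values were log2 expression values, and differences are epirubicin minus shCtrl on that scale. They were tested with limma over all 47481 probe sets, with Benjamini-Hochberg adjustment. A probe set was called when its adjusted p was under 0.05 and its change reached 1.3-fold, as in the series' design text.

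No probe set of the survival genes changed by 1.3-fold or more. With limma 0 of the 20 probe sets were called higher and 0 lower, where 6.27% of all probe sets were called, 3.65% higher and 2.62% lower. With only 20 probe sets, 0 calls lies near the share of 6.27%. In these bulk samples a change in the share of cells and a change in RNA per cell cannot be told apart. Without the fold threshold 6 of the 20 had an adjusted p under 0.05, 4 higher and 2 lower, which is 30% against 25.1% of all probe sets. Among probe sets brighter than the median of all values it was 6 of 15, or 40%, against 40.3%. At an unadjusted p under 0.05 there were 10, against 36.3% of all probe sets. The 3 arrays of 1 group lay wholly beyond the 3 of the other in 11 of the 20, or 55%, against 41.2% of all probe sets. The share past the adjusted p lay near that of the whole array, and the other shares were not tested against it. The median change was 0.036 on the log2 scale, against 0.0064 over all probe sets. The median size of change, regardless of sign, was 0.12 against 0.098. By that measure the members changed no less than the typical probe set.

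**Figure D1:**
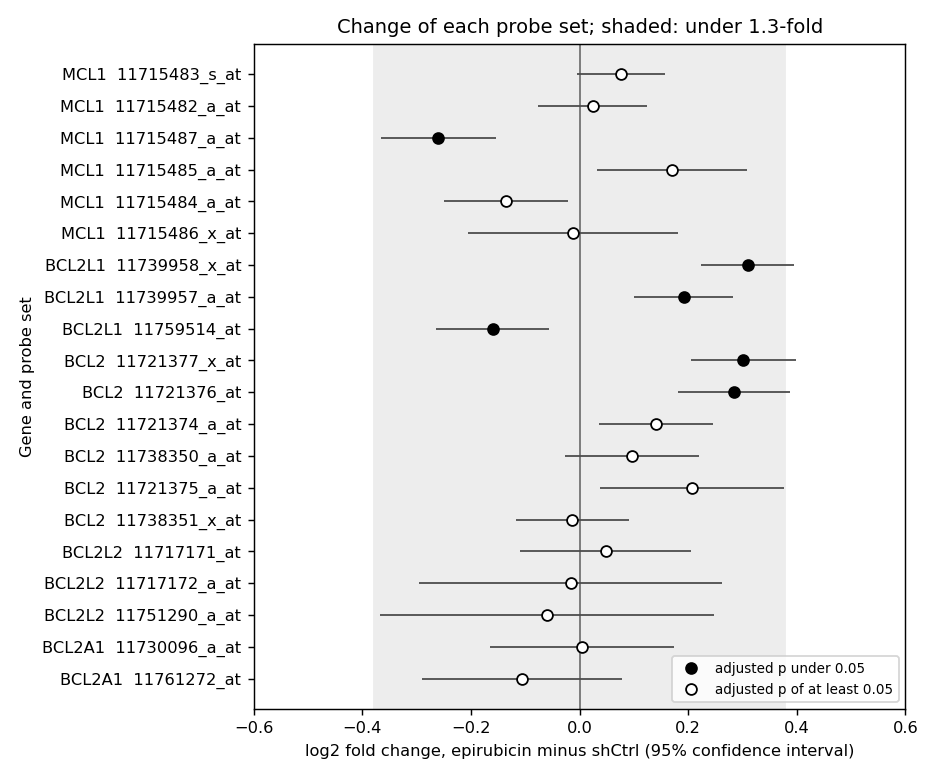
Log2 fold change (epirubicin minus shCtrl) of the 20 probe sets with 95% confidence intervals from limma, grouped by gene and ordered by brightness within it; filled points have an adjusted p under 0.05 and the shaded band marks changes under 1.3-fold. All 20 estimates lie inside the band, 4 filled points lie above 0 (BCL2L1 and BCL2) and 2 below (MCL1 and BCL2L1).

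The members differed widely in signal. Taken by its brightest probe set over the 6 arrays, each gene had its place in the order MCL1, BCL2L1, BCL2, BCL2L2, BCL2A1. The arrays of neighbouring genes in that order did not overlap. BCL2L1 and BCL2 were placed by _x_at sets, whose probes may also match other transcripts. Among sets without an _s_at or _x_at ending, BCL2 stood above BCL2L1 on every array. There 11721376_at of BCL2 had 8.26 to 8.33 in epirubicin arrays and 7.95 to 8.06 in shCtrl arrays. The brightest such set of BCL2L1, 11739957_a_at, had 7.71 to 7.77 in epirubicin arrays and 7.52 to 7.59 in shCtrl arrays. MCL1, a short-lived guardian protein with high transcript turnover, averaged 10.85 ± 0.02 in epirubicin arrays and 10.77 ± 0.01 in shCtrl arrays (SD, n = 3 each), brighter than 98.0% of all probe sets in epirubicin arrays and 97.9% in shCtrl arrays. BCL2L1, which encodes BCL-XL, averaged 9.39 ± 0.03 and BCL2 8.39 ± 0.02 in epirubicin arrays, against 9.08 ± 0.02 and 8.09 ± 0.05 in shCtrl arrays (SD, n = 3 each). BCL2L2, which encodes BCL-W, lay near the middle of the array, brighter than 56.3% of probe sets in epirubicin arrays and 56.0% in shCtrl arrays. BCL2A1, which encodes BFL1, an NF-kB target of activated B cells and myeloid cells, was brighter than 6.93% of probe sets in epirubicin arrays and 7.09% in shCtrl arrays. Brightness depends on how well each probe binds, so this is an order of signals and not of transcript numbers. Probe sets of 1 gene also differed in signal: the 6 of MCL1 spanned 4.29 log2 units, the 6 of BCL2 2.81, the 3 of BCL2L2 2.37 and the 3 of BCL2L1 1.91. What sets them apart was not tested.

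**Figure D2:**
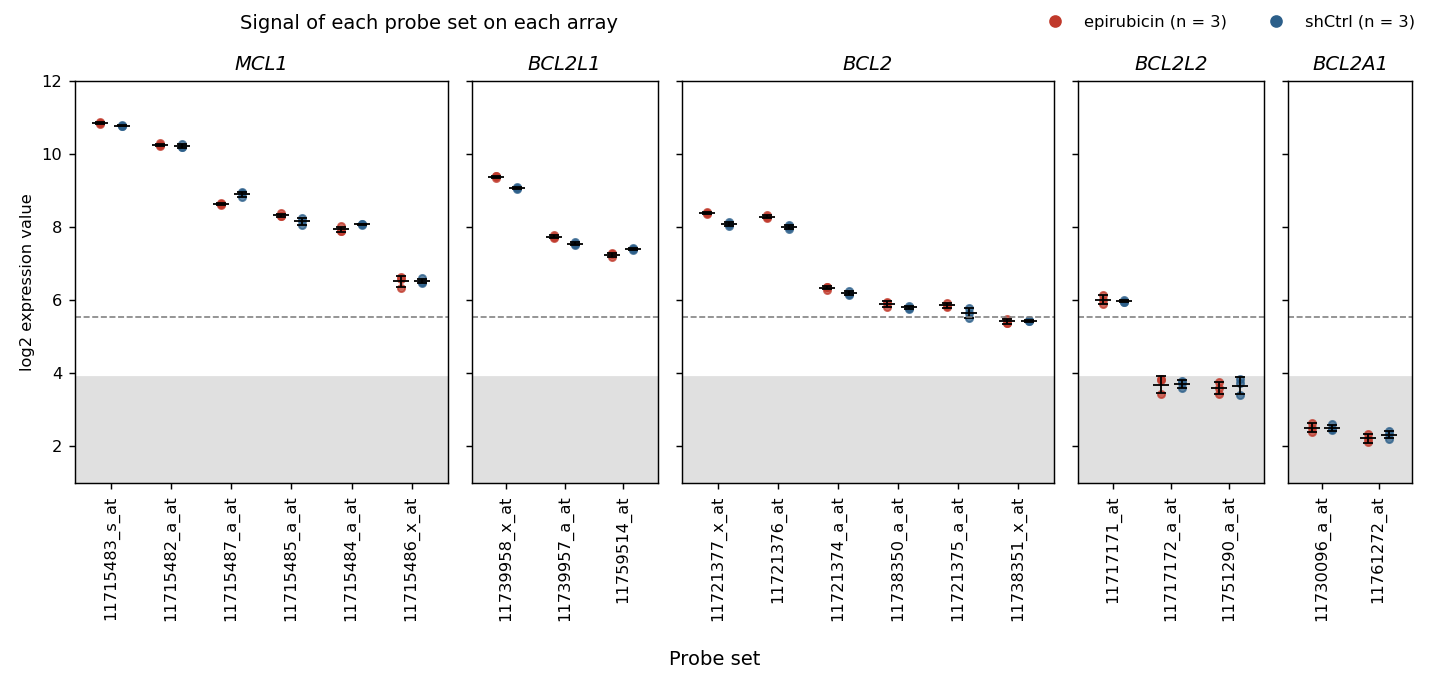
Log2 expression value of each probe set on each array, epirubicin left of shCtrl, with black bars for the mean and SD (n = 3); the dashed line is the median of all values (5.54) and the grey area lies below the highest lower quartile of the 6 arrays (3.90). MCL1 holds the brightest probe sets, 2 of the 3 of BCL2L2 and both of BCL2A1 lie in the grey area, and the probe sets of MCL1 span 4.29 log2 units, while no probe set shown differs by more than 0.31 between the groups.

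Of the 6 probe sets of MCL1, 1 had an adjusted p under 0.05, and it was lower. The brightest, 11715483_s_at, had 10.87, 10.85 and 10.83 in epirubicin arrays, against 10.78, 10.77 and 10.77 in shCtrl arrays. The epirubicin arrays were all above the shCtrl arrays, by 0.076 (95% confidence interval, CI, -0.0051 to 0.16; limma, adjusted p = 0.160). Its adjusted p was 0.00657 with trend and robust eBayes and 0.0487 among probe sets above the median, and ran up to 0.429 over the other fits. The _s_at and _x_at endings mark probe sets whose probes may also match other transcripts. The second, 11715482_a_at, overlapped between the groups (0.024, CI -0.076 to 0.12; limma, adjusted p = 0.737); both were designed from the same RefSeq transcript.

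The third, 11715487_a_at, fell. It had 8.63, 8.62 and 8.67 in epirubicin arrays, against 8.83, 8.95 and 8.92 in shCtrl arrays, with no overlap. It was 1.20-fold lower with epirubicin (log2 fold change -0.26, SE 0.04, CI -0.37 to -0.15; limma, adjusted p = 0.00654). The dimmer 11715484_a_at pointed the same way, with 7.89, 8.02 and 7.90 in epirubicin arrays, against 8.08, 8.05 and 8.09 in shCtrl arrays. Its groups did not overlap, but the difference of -0.14 missed the threshold (CI -0.25 to -0.022; limma, adjusted p = 0.0850). It passed without epirubicin replicate 2 (0.0298), after median centring (0.0471), among probe sets above the median (0.0224) and with trend and robust eBayes (0.0125), and ran up to 0.211 over the other fits. Another, 11715485_a_at, lay above its controls, with 8.38, 8.30 and 8.31 in epirubicin arrays, against 8.17, 8.26 and 8.06 in shCtrl arrays. That difference of 0.17 did not pass either (CI 0.032 to 0.31; limma, adjusted p = 0.0777). It passed without shCtrl replicate 2 (0.0438), among probe sets above the median (0.0209) and with trend and robust eBayes (0.00575), and ran up to 0.193 over the other fits. The last, 11715486_x_at, overlapped between the groups (-0.012, CI -0.21 to 0.18). MCL1 transcripts are known to be spliced into long, short and extra short forms, of which the short ones lack the antiapoptotic function. The positions of the probes within the transcripts were not used here, so which form each probe set reads was not tested.

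Both bright probe sets of BCL2 rose. BCL2, named for its translocation in follicular lymphoma, encodes the target of venetoclax. Probe set 11721377_x_at had 8.41, 8.37 and 8.39 in epirubicin arrays, against 8.04, 8.10 and 8.13 in shCtrl arrays. The lowest epirubicin array stood well above the highest shCtrl array, and the mean was 1.23-fold higher with epirubicin (0.30, SE 0.04, CI 0.21 to 0.40; limma, adjusted p = 0.00242). Probe set 11721376_at, designed from the same transcript, without the ending that marks possible cross-matches, had 8.26, 8.27 and 8.33 in epirubicin arrays, against 7.95, 8.01 and 8.06 in shCtrl arrays. It was 1.22-fold higher (0.28, SE 0.04; limma, adjusted p = 0.00396). Changes larger in size than that of the first were found in 10.7% of all probe sets.

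The dim probe sets of BCL2 did not pass. Both bright ones were designed from NM_000633, the RefSeq transcript of the alpha form, which carries the membrane anchor. The 2 designed from NM_000657, the beta form, lay near the median of all values. Of these, 11738350_a_at had 5.95, 5.81 and 5.93 in epirubicin arrays, against 5.77, 5.78 and 5.85 in shCtrl arrays (0.096, CI -0.028 to 0.22; limma, adjusted p = 0.241). The other, 11738351_x_at, had 5.49, 5.38 and 5.38 in epirubicin arrays, against 5.43, 5.42 and 5.45 in shCtrl arrays (-0.013, CI -0.12 to 0.091). In both the groups overlapped. Whether the probes of any of these sets separate the alpha from the beta form was not tested. The remaining pair, 11721374_a_at (0.14; limma, adjusted p = 0.0596) and 11721375_a_at (0.21; limma, adjusted p = 0.0786), had no overlap between the groups and lay above their controls. Among probe sets above the median the adjusted p was 0.0131 for the first and 0.0221 for the second, which also passed with trend and robust eBayes (0.0323) and without shCtrl replicate 1 (0.0369); over the other fits they ran up to 0.162 and 0.190.

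BCL2L1 moved in opposite directions on its probe sets. The brightest, 11739958_x_at, had 9.35, 9.41 and 9.39 in epirubicin arrays, against 9.07, 9.06 and 9.10 in shCtrl arrays. The groups were far apart for their spread, and the mean was 1.24-fold higher (0.31, SE 0.04, CI 0.22 to 0.40; limma, adjusted p = 0.00145). Probe set 11739957_a_at had 7.71, 7.77 and 7.74 in epirubicin arrays, against 7.52, 7.59 and 7.54 in shCtrl arrays, and was 1.14-fold higher (0.19, SE 0.04; limma, adjusted p = 0.0121). In contrast 11759514_at, designed from a single expressed sequence tag, had 7.17, 7.29 and 7.26 in epirubicin arrays, against 7.43, 7.39 and 7.38 in shCtrl arrays. It was 1.12-fold lower (-0.16, SE 0.04, CI -0.26 to -0.056; limma, adjusted p = 0.0378). That decrease was close to the threshold: limma's adjusted p was 0.0912 without epirubicin replicate 1, 0.0808 without epirubicin replicate 3, 0.114 without shCtrl replicate 1, 0.0876 without shCtrl replicate 2 and 0.0812 without shCtrl replicate 3, with values between -0.17 and -0.13. Over all fits tried it ran from 0.00664 to 0.114. Probe sets past the adjusted p in both directions were found for 37 of the 6914 genes with at least 3 probe sets, or 0.535%. BCL2L1 transcripts are known to be spliced into BCL-XL and the proapoptotic BCL-XS. The brightest probe set was designed from NM_001191, the RefSeq transcript of the short form, but whether its probes separate it from the long one was not tested.

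The distance between probe sets of a gene was compared within arrays, which removes differences in overall brightness between arrays. Each of the 15 dimmer probe sets was set against the brightest of its gene. The distance of the 2 groups did not overlap in 7 of 15, or 46.7%, against 26% of 26442 such distances over all genes. All distances of a gene share its brightest probe set, so they are not separate observations, and a change of that set shifts them all. For BCL2L1, 11759514_at lay -2.14 ± 0.03 from the brightest in epirubicin arrays and -1.67 ± 0.04 in shCtrl arrays, a difference of -0.47 (SD, n = 3 each; exact permutation test, two-sided p = 0.1, adjusted p = 0.214 over 15 comparisons). For MCL1, 11715487_a_at lay -2.21 ± 0.05 from the brightest in epirubicin arrays and -1.87 ± 0.07 in shCtrl arrays, a difference of -0.34 with the same exact permutation p. For BCL2, 11738351_x_at lay -2.97 ± 0.04 from the brightest in epirubicin arrays and -2.65 ± 0.04 in shCtrl arrays, a difference of -0.32 with the same exact permutation p. Here 11738351_x_at itself changed by -0.013 and the brightest by 0.30. With 3 arrays against 3, 0.1 is the smallest p this test can give.

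**Figure D3:**
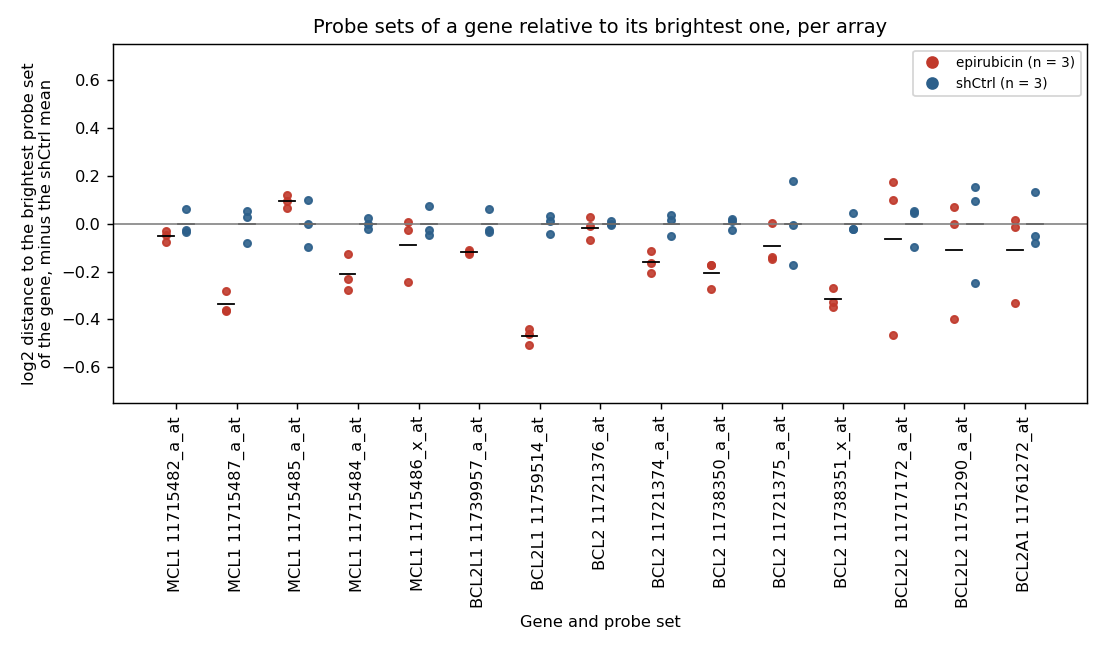
Log2 distance of each dimmer probe set to the brightest of its gene on each array, after subtracting the mean distance in shCtrl arrays; epirubicin is left of shCtrl and short bars are means (n = 3). The widest gaps are those of 11759514_at of BCL2L1 (-0.47), 11715487_a_at of MCL1 (-0.34) and 11738351_x_at of BCL2 (-0.32).

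BCL2L2 and BCL2A1 showed no difference beyond their spread. BCL2L2 on 11717171_at had 6.00, 6.15 and 5.90 in epirubicin arrays, against 6.00, 5.96 and 5.95 in shCtrl arrays (0.048, CI -0.11 to 0.21; limma, adjusted p = 0.661). On every array its other probe sets lay below the lower quartile, with intervals that reach from -0.37 to 0.26, so changes of up to about that size were not detectable there. Probe sets that name PABPN1 and the BCL2L2-PABPN1 read-through together were not counted. BCL2A1 on 11730096_a_at had 2.63, 2.40 and 2.51 in epirubicin arrays, against 2.60, 2.48 and 2.45 in shCtrl arrays (CI -0.16 to 0.17; limma, adjusted p = 0.972). On 11761272_at it had 2.11, 2.19 and 2.34 in epirubicin arrays, against 2.34, 2.42 and 2.21 in shCtrl arrays (-0.11, CI -0.29 to 0.077). On every array both lay below the lower quartile, and without detection calls a low signal cannot be told from background.

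Responses were set against each other within arrays, over the 10 pairs of the 5 genes by their brightest probe sets. BCL2 minus MCL1 was -2.46 ± 0.02 in epirubicin arrays and -2.69 ± 0.06 in shCtrl arrays, so BCL2 gained 0.23 on MCL1 (SD, n = 3 each; exact permutation test, two-sided p = 0.1, adjusted p = 0.167). BCL2L1 minus MCL1 was -1.46 ± 0.04 in epirubicin arrays and -1.70 ± 0.02 in shCtrl arrays, a gain of 0.23 with the same exact permutation p. On BCL2L2, BCL2 gained 0.25 and BCL2L1 0.26, again with no overlap and the same p. The pairs with BCL2A1 are not read, since its signal cannot be told from background. BCL2 minus BCL2L1 was -0.997 ± 0.05 in epirubicin arrays and -0.989 ± 0.04 in shCtrl arrays, with overlap (exact permutation test, p = 0.9). These gains depend on the probe sets: averaged over every probe set of the gene, BCL2 changed by 0.17 (limma over genes, adjusted p = 0.00399), BCL2L1 by 0.11 (adjusted p = 0.0321) and MCL1 by -0.023 (adjusted p = 0.645).

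BCL2 and BCL2L1 were the 2 members whose brightest probe sets rose with an adjusted p under 0.05 in limma. No promoter was available for MCL1 and BCL2L2, and that of BCL2A1 is not shown. The promoters of BCL2 and BCL2L1 are given from 250 bases before to 50 after each start (RefSeq, GRCh38.p14, minus strand, 5′ to 3′). They lie at chr18:63319720-63320019 for BCL2 and at chr20:31723914-31724213 and chr20:31722819-31723118 for 2 starts of BCL2L1. Capitals mark the letters of a TATA box (TATAAA) or of a GC box (GGGCGG), at any position and searched on both strands.
BCL2: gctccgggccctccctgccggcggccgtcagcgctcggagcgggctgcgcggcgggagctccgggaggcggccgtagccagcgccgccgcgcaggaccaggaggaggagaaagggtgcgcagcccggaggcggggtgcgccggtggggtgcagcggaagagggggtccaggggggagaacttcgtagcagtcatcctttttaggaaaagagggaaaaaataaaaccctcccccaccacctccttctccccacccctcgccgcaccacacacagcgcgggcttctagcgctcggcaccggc
BCL2L1, upstream start: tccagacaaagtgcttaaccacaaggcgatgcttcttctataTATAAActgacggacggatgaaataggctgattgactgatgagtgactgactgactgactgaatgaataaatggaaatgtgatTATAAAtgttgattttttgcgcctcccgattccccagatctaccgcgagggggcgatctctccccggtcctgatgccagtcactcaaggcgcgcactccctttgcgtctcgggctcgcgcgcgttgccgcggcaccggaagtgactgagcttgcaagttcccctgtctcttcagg
BCL2L1, downstream start: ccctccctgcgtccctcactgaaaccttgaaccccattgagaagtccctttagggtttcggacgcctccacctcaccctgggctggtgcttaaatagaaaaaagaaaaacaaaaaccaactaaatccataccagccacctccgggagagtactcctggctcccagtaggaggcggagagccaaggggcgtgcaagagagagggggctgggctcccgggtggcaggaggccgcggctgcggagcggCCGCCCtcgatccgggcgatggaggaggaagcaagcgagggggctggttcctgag

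The BCL2 window was 70.7% G and C and held neither motif, the upstream window of BCL2L1 was 52.0% and held 2 TATA boxes, and its downstream window was 61.3% and held 1 GC box. TATAAA occurs in 11.5% and GGGCGG in 45% of 35116 promoters of the same length. The CCAAT box (CCAAT, in 34.6% of promoters), the p53 half-site (in 6.63%) and the kB site (in 5.91%) did not match in any of the 3 windows. A match describes letters and not a bound site.

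The other genes of the pathway are given by the brightest probe set of each gene, tested with limma over 17534 genes, of which 4.36% were called higher and 2.14% lower. Of the 5 antiapoptotic genes 0 were called; 2 (BCL2 and BCL2L1) had an adjusted p under 0.05, against 29.1% of all genes, and the median change was 0.076. Of 8 BH3-only genes 3 were called higher and 0 lower, with a median of 0.14, and of 3 effectors 1 was higher and 0 lower. The median over all genes was 0.019. PMAIP1, which encodes NOXA, the partner of MCL1 and BFL1, had 8.61, 8.59 and 8.56 in epirubicin arrays, against 6.62, 6.63 and 6.56 in shCtrl arrays. BBC3, which encodes PUMA, a partner of all 5 survival proteins, had 8.70, 8.84 and 8.83 in epirubicin arrays, against 7.04, 6.99 and 7.12 in shCtrl arrays. Their log2 gains of 1.98 and 1.74 stand beside 0.31, the largest of the 5 survival genes. Averaged over the 2 probe sets of each gene, all of them called higher, PMAIP1 gained 2.00 and BBC3 1.24. BMF (0.65) and the effector BAX (0.44) were also called higher. For BMF 1 of 4 probe sets was called, and the mean over all 4 was 0.28, short of 1.3-fold, which left 2 BH3-only genes called by gene means. BAK1, the effector held by MCL1 and BCL-XL, was lower by a small amount (-0.11, CI -0.19 to -0.038; limma, adjusted p = 0.0366), and BCL2L11, which encodes BIM, overlapped between the groups (0.049, CI -0.040 to 0.14).

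**Figure D4:**
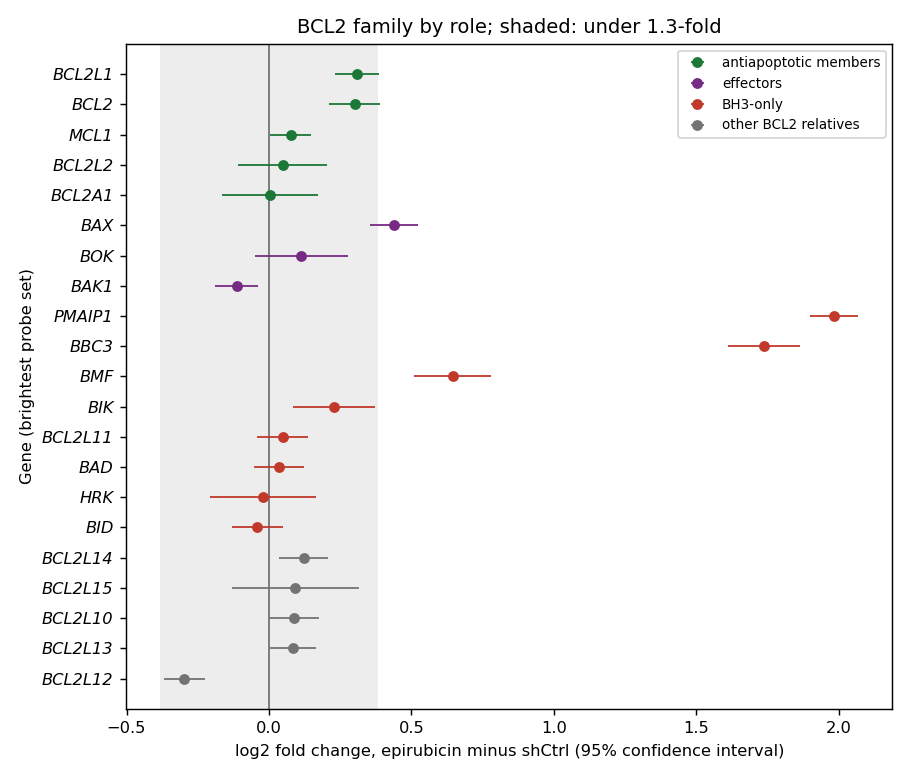
Log2 fold change (epirubicin minus shCtrl) of BCL2 family genes by role, each by its brightest probe set, with 95% confidence intervals from limma; the shaded band marks changes under 1.3-fold. PMAIP1 (1.98), BBC3 (1.74), BMF (0.65) and BAX (0.44) lie beyond the band, and the 5 antiapoptotic genes lie inside it, between 0.0046 and 0.31.

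Of 5 other BCL2 relatives 0 were called, with changes from -0.30 to 0.12 and a median of 0.087. With an adjusted p under 0.05, 1 was higher and 1 lower, where 29.1% of all genes passed. The lower 1 was BCL2L12 (-0.30; limma, adjusted p = 0.000666), named after its value was seen. The relatives include BCL2L10, which encodes a further antiapoptotic protein. BCL2L10 lay below the lower quartile of the arrays at 3.86, 3.82 and 3.82 with epirubicin, against 3.79, 3.76 and 3.70 in shCtrl. Of 6 genes that control MCL1 protein turnover, which is by ubiquitin ligases and deubiquitinases, 0 were called, with changes from -0.20 to 0.17 and a median of -0.061. At any fold, 1 of the 6 was higher and 3 lower with an adjusted p under 0.05, where 29.1% of all genes passed. The extremes, named after their values were seen, were the deubiquitinase genes USP13 (-0.20; limma, adjusted p = 0.00681) and USP9X (0.17; limma, adjusted p = 0.0106). Of 13 measured membrane partners 1 was called higher, BNIP3L, a mitophagy receptor that binds BCL2 proteins (0.86, SE 0.04; limma, adjusted p = 5.64e-05), and 0 lower (median 0.022). Of 8 measured genes downstream of the mitochondrion 1 was called lower, BIRC5, which encodes survivin, a mitotic protein (-0.77, SE 0.03; limma, adjusted p = 3.82e-05), and 0 higher (median 0.014). Of 12 genes of the IL-6, STAT3 and NF-kB input, known regulators of MCL1, BCL2L1 and BCL2A1 transcription, 2 were called higher and 0 lower (median 0.077). They were RELB, an NF-kB subunit, with 8.06, 8.12 and 8.04 in epirubicin arrays, against 7.55, 7.40 and 7.49 in shCtrl arrays (0.59), and STAT3, with 7.98, 8.10 and 8.004 in epirubicin arrays, against 7.46, 7.45 and 7.52 in shCtrl arrays (0.55).

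Pearson's r over the 6 arrays, which share the group difference, was used to describe likeness among the genes brighter than the median of all values. NFATC2IP (r = 0.9997) and RIOK3 (0.9988) were most like BCL2, TEX9 (0.9994) and HLA-DPA1 (0.9991) most like BCL2L1, and TPGS1 (0.9980) and SH3PXD2A (0.9975) most like MCL1. An r over 0.95 was shared with BCL2 by 1104 genes, with BCL2L1 by 1432 and with MCL1 by 419 of 9934. For BCL2L2 it was shared by 9 genes, led by UPRT (0.9958) and CRYAB (0.9724). For BCL2A1 it was shared by 6 of 9935, led by DND1 (0.9753) and WNT6 (0.9747). The likeness to BCL2A1 is not read, since its signal cannot be told from background.

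The cells carried the markers of plasma cells and 2 of the 4 measured B cell markers. All 9 plasma cell markers had a mean over the 6 arrays above the median of all values, with 2 called lower (CD38 and IRF4). CD38 averaged 5.25 in epirubicin arrays, below that median, and 6.42 in shCtrl arrays. By the same measure 2 of 4 B cell, 1 of 7 T and NK cell, 1 of 8 myeloid and 0 of 6 stromal markers lay above that median. Of the 4 measured B cell markers 0 were called. On every array MS4A1 lay below the lower quartile. PAX5 averaged 9.88 in epirubicin arrays and 9.77 in shCtrl arrays, and CR2 averaged 9.44 in epirubicin arrays and 9.16 in shCtrl arrays. Of 7 T and NK cell markers and of 6 stromal markers 0 were called. Of 8 myeloid markers 3 were called higher and 0 lower (ITGAM, CD68 and S100A9), and the log2 of their summed signal was 8.77 to 8.87 in epirubicin arrays and 7.94 to 8.004 in shCtrl arrays. The myeloid markers CD14, LYZ and S100A8 lay below the lower quartile on all 6 arrays, as did BCL2A1; the part of the myeloid markers in the results was not tested.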

How the data were processed

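RNA of MM.1R cells was measured on 6 Affymetrix PrimeView arrays, 3 per group, with groups and replicate numbers taken from the sample titles. The table was the authors' deposited log2 expression values, 1 per probe set and array. The scale follows from their range (1.41 to 13.73). The submitters' processing notes name only affy; how background, normalization and probe summary were handled is not given in the sources used here. The 6 array medians ran from 5.52 to 5.57. They followed the groups, with 5.56 to 5.57 in epirubicin arrays and 5.52 to 5.54 in shCtrl arrays. No further normalization was done, and a change in total RNA per cell cannot be seen.

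The platform annotation named the probe sets: 43976 had 1 symbol, 1558 several and 1947 none. Symbols were updated by Entrez number against RefSeq, where 43954 matched. The test was limma (version 3.58.1, R version 4.3.3; lmFit, eBayes, no covariate), checked on simulated data. Fold changes carry limma's SE and 95% CI. The brightest probe set was chosen by the mean over the 6 arrays. The kB and p53 motifs were searched with degenerate letters. Named genes are all members, up to 3 called genes per pathway list and direction, PMAIP1, BBC3, BCL2L11, BAX and BAK1, and the 2 genes most like each member. BCL2L10, BCL2L12, USP13, USP9X, MS4A1, PAX5, CR2, CD14, LYZ and S100A8 were named after their values were seen. The members and lists were chosen with earlier results of these data known. Of the listed genes, 5 are not analysed here. Arrays with the same replicate number did not deviate together (correlations of -0.033, 0.017 and 0.0011). Precision is limited by the few arrays.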

Additional observations from a re-analysis of the deposited data

How the results depend on the processing

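The counts at 1.3-fold, 0 higher and 0 lower among the 20 probe sets, held under all 12 other fits and at a fold of at least 1.5. With no fold threshold they were 4 and 2. At an adjusted p under 0.05, 4 were higher and 2 lower. The number higher was 8 among probe sets above the median, 7 with trend and robust eBayes and 2 without the _s_at and _x_at sets. The number lower was 3 after median centring, among probe sets above the median and with trend and robust eBayes, where 11715484_a_at of MCL1 was added. It was 1 with the replicate block, where 11759514_at of BCL2L1 had an adjusted p of 0.0950 in limma; the block changed no other call. Without 1 array the number higher was 4 to 5 and the number lower 1 to 3. Of all 47481 probe sets, 1735 were called higher and 1242 lower (58.3% of calls higher), against 1478 and 1633 (47.5%) after median centring, and 1125 were higher without the _s_at and _x_at sets. Counts of the pathway lists held within 1.5 times, the BH3-only genes at 2 by gene means, against 3. Of 230 values of single probe sets, 195 kept direction and side of the threshold, 6 became weaker, all of 11759514_at, 13 stronger and 16 changed sign, none of them past the threshold; the cause was not tested. Median centring turned 11715482_a_at of MCL1 to -0.0088 and 11730096_a_at of BCL2A1 to -0.028, and quantile normalization turned the last to -0.0076. As means over probe sets BCL2L2 was -0.0097, MCL1 -0.023 and BCL2A1 -0.051, BCL2 minus BCL2L1 was 0.056 and BCL2L2 minus MCL1 0.013. Without 1 array, these log2 changes crossed 0: 11738351_x_at of BCL2 (-0.050 to 0.0054), 11730096_a_at of BCL2A1 (-0.053 to 0.062), 11717171_at (-0.019 to 0.11), 11717172_a_at (-0.090 to 0.12) and 11751290_a_at (-0.19 to 0.032) of BCL2L2, and 11715486_x_at of MCL1 (-0.069 to 0.077). So did the pair differences BCL2 minus BCL2L1 (-0.036 to 0.016), BCL2L2 minus MCL1 (-0.095 to 0.020) and BCL2L2 minus BCL2A1 (-0.082 to 0.11), and the distances of 11721376_at (-0.039 to 0.0085), 11717172_a_at (-0.18 to 0.14) and 11751290_a_at (-0.23 to 0.036) to the brightest of their gene. Without detection calls, signal over background could not be judged, which limits BCL2A1 and the dim sets of BCL2L2.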
